A study of Mus musculus with 15 samples.

Results

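The genes of the muscle acetylcholine receptor and of the neuromuscular junction were followed by RNA-seq in newborn mouse tongue, with newborn epidermis as the background tissue. The set held 10 of the 23420 mouse genes in the deposited tables, chosen by gene symbol. These were the 5 subunits of the muscle nicotinic receptor (Chrna1, Chrnb1, Chrnd, Chrng and Chrne) and 5 organizers of the synapse (Musk, Rapsn, Dok7, Colq and Lrp4). The libraries were 4 of knockout (KO) tongue, 4 of wild-type (WT) tongue, 4 of KO epidermis and 3 of WT epidermis, all at postnatal day 1 (P1) and with no treatment given. KO mice were homozygous mutant (-/-) for the listed genes Tmprss11a to Tmprss11g, part of the cluster that encodes the HAT/DESC membrane-anchored serine proteases. WT mice were labelled wildtype, and the strain field of every library, WT included, names the same cluster genes. Read as animals, the numbers in the labels gave 9 mice, of which 6 gave both tissues, including all 4 KO mice.

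At the neuromuscular junction, acetylcholine released by the motor axon opens a channel built from a pair of α1 subunits with β1, δ and either γ or ε. Fetal muscle uses γ and mature muscle uses ε, and in mice the change takes place over the first weeks after birth, so newborn muscle lies early in it. Agrin from the nerve binds Lrp4, which activates the kinase Musk together with Dok7, and rapsyn then gathers the receptors under the nerve ending. The tongue is a mass of striated muscle under an oral epithelium, whereas epidermis holds no muscle of its own.

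Counted reads per library ranged between 10117819 and 17819195. Summed over the 6 targeted genes analysed, levels in CPM (reads of a gene scaled to the size of its library) were 134 to 148 in KO tongue, against 341 to 381 in WT tongue, and 109 to 243 in KO epidermis, against 246 to 312 in WT epidermis. In tongue 6 of the 6 had a log2 fold change below 0 and 2 were called, and in epidermis 5 of the 6 were below 0 and 0 were called. The other, Tmprss11g, averaged 11.1 ± 5.47 CPM in KO epidermis (n = 4) and 8.47 ± 1.91 CPM in WT epidermis (SD, n = 3). Reads over an edited gene can remain when its protein is lost. Tissue labels matched their markers. A list of 12 muscle genes (Acta1, Ckm, Ttn and others) summed to 30561 to 48319 CPM in KO tongue and 28705 to 46637 in WT tongue, and to 107 to 720 in KO epidermis and 111 to 257 in WT epidermis. A list of 7 epidermal keratinocyte genes ran the other way, with 618 to 866 CPM in KO tongue and 694 to 856 in WT tongue, and 33917 to 55794 in KO epidermis and 28711 to 49477 in WT epidermis. In such bulk samples, fewer cells of a type and less RNA per cell cannot be told apart. Mitochondrial ribosomal RNA took 44.6% of reads in epidermis WT 1, where the other epidermis libraries had 20.1% to 23.8% and tongue had 35.5% to 40.8%. Of its 2 genes, mt-Rnr1 stood at 78127 CPM in tongue KO 3, against 20500 to 23151 CPM in the other KO tongue libraries and 19415 to 23035 CPM in WT tongue. That library was also the highest or lowest of KO tongue for several members, whose values are given with and without it, and the part of its RNA in them was not tested. The labels' animal numbers fall in 3 ranges (A32x, A34x and A38x). Replicate 1 of each group is an A32x animal. In tongue, replicate 2 is an A34x animal and replicates 3 and 4 are A38x animals.

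The stretches just upstream of Chrng, Chrna1, Musk and Chrne are shown because γ and ε are the subunits that exchange and because Chrna1 and Musk had the highest tongue levels, relative to epidermis, in both genotypes among genes with epidermis reads. Each is the 250 bases before a RefSeq transcript start (GRCm38.p6), written 5′ to 3′ on the gene's strand. Chrng lies at chr1:87205561-87205810 on the plus strand, Chrna1 at chr2:73580339-73580588 on the minus strand, Musk at chr4:58285712-58285961 on the plus strand and Chrne at chr11:70619195-70619444 on the minus strand. Capitals mark every CANNTG (N is any base), the E-box letters read by muscle transcription factors such as myogenin, and every CCGGAA on either strand, the N-box letters described for nerve-dependent transcription of synaptic genes. 
Chrng: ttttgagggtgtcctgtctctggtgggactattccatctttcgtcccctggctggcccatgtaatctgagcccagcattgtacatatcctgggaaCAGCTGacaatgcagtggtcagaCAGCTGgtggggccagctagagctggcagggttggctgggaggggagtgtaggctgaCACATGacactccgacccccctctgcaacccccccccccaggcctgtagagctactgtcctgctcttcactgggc
Chrna1: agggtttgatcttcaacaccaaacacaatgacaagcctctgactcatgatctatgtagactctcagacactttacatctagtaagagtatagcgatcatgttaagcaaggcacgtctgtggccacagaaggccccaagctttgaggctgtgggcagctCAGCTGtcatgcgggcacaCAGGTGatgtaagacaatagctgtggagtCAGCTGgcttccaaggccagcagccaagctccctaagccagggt
Musk: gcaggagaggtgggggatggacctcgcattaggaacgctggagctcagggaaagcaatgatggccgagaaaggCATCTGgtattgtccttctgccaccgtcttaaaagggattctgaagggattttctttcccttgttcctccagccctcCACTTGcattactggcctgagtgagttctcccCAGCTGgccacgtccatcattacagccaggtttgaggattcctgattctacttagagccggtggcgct
Chrne: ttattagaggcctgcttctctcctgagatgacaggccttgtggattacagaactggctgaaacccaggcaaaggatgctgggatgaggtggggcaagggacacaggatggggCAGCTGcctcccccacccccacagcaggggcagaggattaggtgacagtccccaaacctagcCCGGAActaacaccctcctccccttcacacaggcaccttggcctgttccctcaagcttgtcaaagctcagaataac

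The windows of Chrng, Chrna1 and Musk, and that of Chrnb1, each held 3 matches to CANNTG, a number reached by 12.2% of all 32851 promoter windows of this length. The Chrng matches began 155, 132 and 75 bases before the start. Those of Chrna1 began 92, 73 and 44 bases before it, and those of Musk 177, 100 and 68 bases before it. Chrne held 1 match, which began 138 bases before the start, where 66.2% of all windows held at least 1. It was the window among the members that also held CCGGAA, 76 bases before the start, and 12% of all windows held these letters. CAGCTG, a spelling of CANNTG that reads the same on both strands, stood in the windows of Chrng, Chrna1, Musk and Chrne and in 13% of all windows. For 6 of the 10 members a window was matched by symbol (Dok7, with a pair of starts, is the other). The RefSeq start of Chrng lies inside the span that GENCODE M21 gives to the gene. A match is a run of letters and says nothing of binding.

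All 10 genes were detected in every tongue library. Per kilobase (kb) of exon, Chrnb1 was highest and Chrne lowest in both genotypes. In KO tongue the mean CPM per kb was 20.0 for Chrnb1, 11.4 for Musk, 10.1 for Chrna1, 6.52 for Lrp4, 5.88 for Rapsn, 3.82 for Chrnd, 2.68 for Dok7, 2.21 for Colq, 2.02 for Chrng and 1.08 for Chrne. In WT tongue it was 20.4 for Chrnb1, 11.4 for Chrna1, 8.98 for Musk, 5.80 for Lrp4, 5.79 for Rapsn, 3.26 for Chrnd, 2.09 for Colq, 1.74 for Dok7, 1.68 for Chrng and 1.17 for Chrne. Neighbours in this order mostly overlapped in their ranges over 4 libraries. The exceptions were Chrna1 above Lrp4 in KO tongue, and Chrnb1 above Chrna1 and Rapsn above Chrnd in WT tongue.

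Among the receptor subunits, Chrna1, at chr2:73563215-73580338 on the minus strand (GRCm38, GENCODE M21, as for all genes here), encodes α1, which carries most of the acetylcholine-binding site. Its level in KO tongue was 44.8, 53.9, 29.9 and 48.6 CPM in KO 1 to 4, against 45.4, 49.7, 50.4 and 54.7 CPM in WT 1 to 4. KO 3 was the lowest of all 8 libraries, and the other 7 lay between 44.8 and 54.7 CPM. Chrnb1, at chr11:69784036-69795943 on the minus strand, encodes β1, a contact of rapsyn. It stood at 40.6, 50.2, 47.9 and 63.4 CPM in KO tongue and 39.3, 43.8, 58.2 and 65.7 CPM in WT tongue, with overlapping groups.

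Chrnd and Chrng lie side by side on the plus strand of chromosome 1, at 87190607 to 87200070 and 87204657 to 87212694, and encode δ and the fetal γ subunit. Chrnd had 7.43, 12.1, 14.8 and 15.9 CPM in KO tongue, against 7.45, 10.6, 12 and 12.7 CPM in WT tongue. Chrng had 5.00, 6.22, 12.7 and 9.69 CPM in KO tongue, against 4.24, 6.61, 7.75 and 9.30 CPM in WT tongue. For both genes the A32x library was the lowest of its genotype, and for both the groups overlapped. Chrne, at chr11:70614883-70619216 on the minus strand, encodes the adult ε subunit. It had 2.65, 1.63, 1.39 and 1.63 CPM in KO tongue, against 1.60, 1.42, 2.17 and 2.70 CPM in WT tongue, which rests on 14 to 35 reads per library. Here the A32x library was the highest of the KO group and the groups again overlapped.

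**Figure D1:**
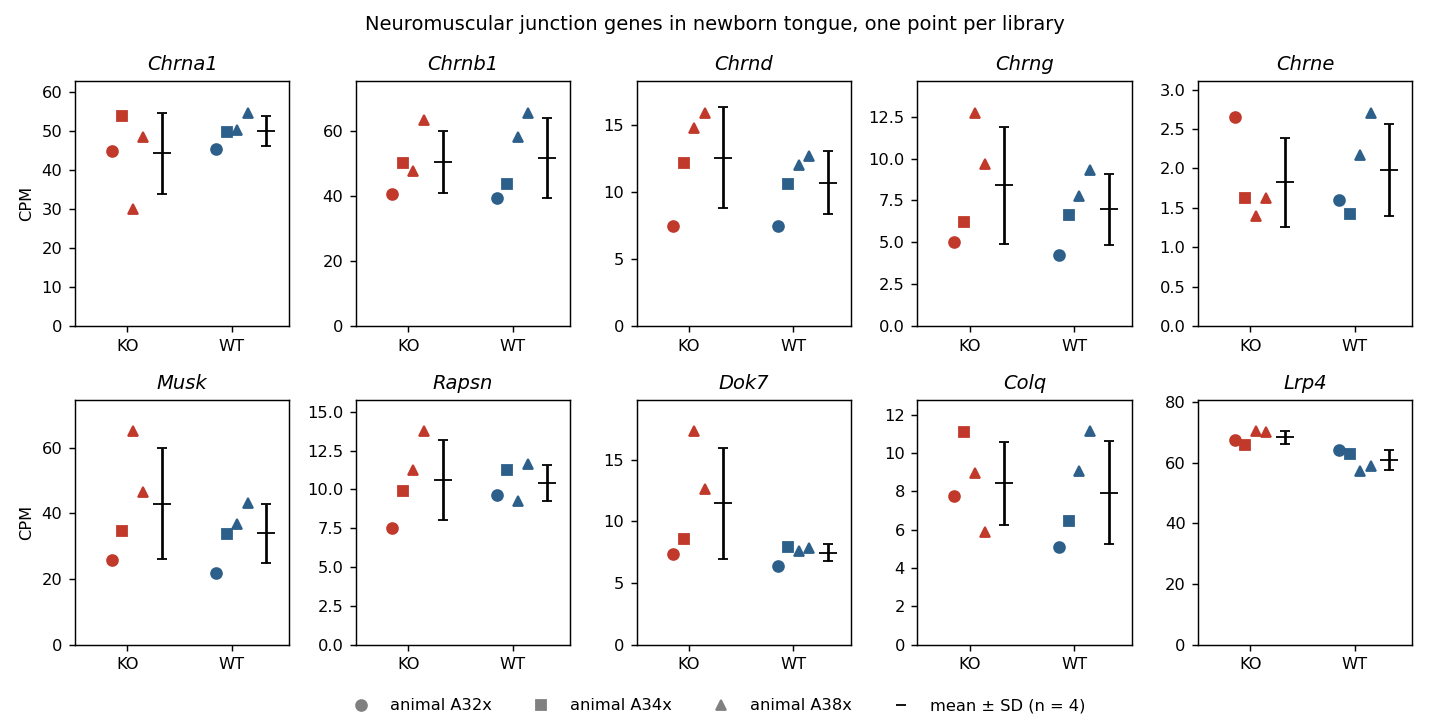
Levels of the 10 genes in newborn tongue. Each panel plots CPM (linear axis from 0) for the 4 KO libraries and the 4 WT libraries, with the shape giving the animal's number range and the bar the mean ± SD. KO 3, the first of the triangles in the KO column, is the highest library for Musk (65.0), Dok7 (17.3) and Chrng (12.7) and the lowest for Chrna1 (29.9).

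Transcripts of the fetal γ subunit outnumbered those of adult ε in newborn tongue, and the balance did not separate the genotypes. Chrne made up 34.7%, 20.8%, 9.86% and 14.4% of the reads of both genes in KO 1 to 4, against 27.4%, 17.6%, 21.9% and 22.5% in WT 1 to 4. The 95% Wilson intervals, which cover counting error only, were 26.1% to 44.3% for KO 1 and 5.96% to 15.9% for KO 3, the extremes, so these libraries differed by more than counting error within the KO group. Per kb of exon, the log2 ratio of Chrng to Chrne was -0.39, 0.63, 1.89 and 1.28 in KO tongue, against 0.10, 0.92, 0.53 and 0.48 in WT tongue. Chrng was thus above Chrne in 7 of 8 libraries, with KO 1 as the exception. Per kb of the longest annotated transcript, in place of all exons, it was above Chrne in 8 of 8, with KO 1 at 0.13 on the log2 scale.

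The mean log2 ratio was 0.85 ± 0.97 in KO tongue and 0.51 ± 0.33 in WT tongue (SD, n = 4 each), a difference of 0.34 (p = 0.514, two-sided exact permutation test, where the smallest p that 4 against 4 can give is 0.0286). KO 3 decided its direction, since without that library the difference was -0.0031 (exact permutation p = 1). Within the A38x animals, 2 against 2, the difference was 1.08 (exact permutation p = 0.333, the smallest possible there). The A32x and A34x animals gave 1 library per genotype, and there the ratio was lower in KO. It was -0.39 in KO and 0.10 in WT for A32x, and 0.63 in KO and 0.92 in WT for A34x.

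**Figure D2:**
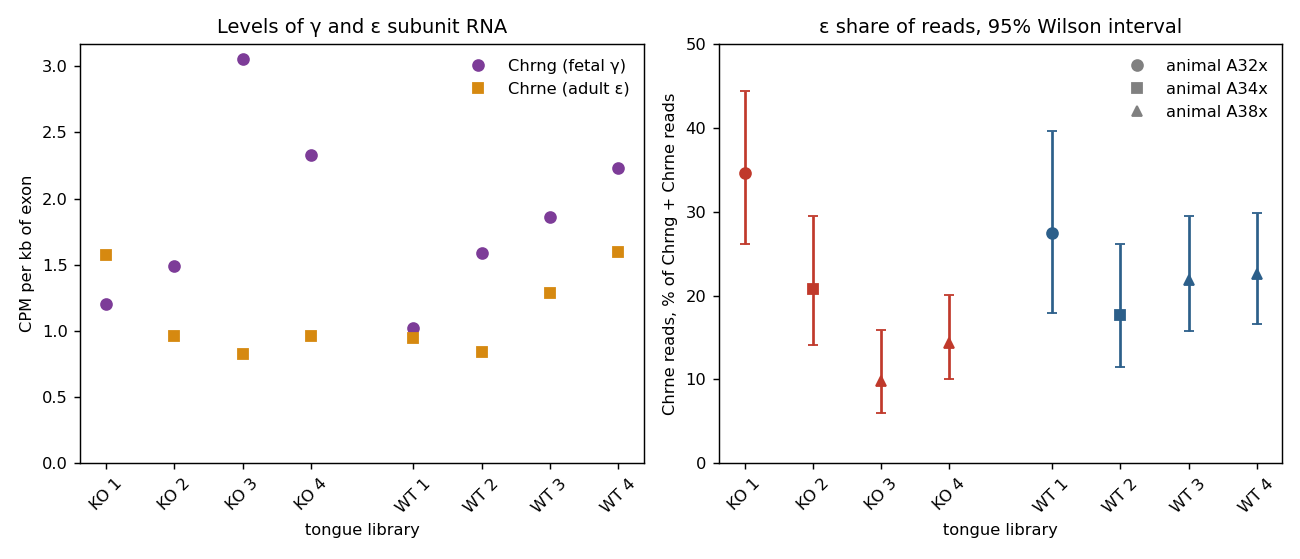
Fetal γ and adult ε subunit RNA in each tongue library. The left panel plots CPM per kb of exon for Chrng (circles) and Chrne (squares), and the right panel plots Chrne as a percentage of the reads of both genes with its 95% Wilson interval and the animal's number range as the shape. The share is 34.7% in KO 1 and 9.86% in KO 3, and the WT libraries lie between 17.6% and 27.4%.

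Of the organizers, Musk, at chr4:58285960-58374303 on the plus strand, encodes the receptor kinase that starts synapse formation. It had 25.7, 34.6, 65.0 and 46.5 CPM in KO tongue, against 21.8, 33.7, 36.8 and 43.2 CPM in WT tongue. KO 3 and KO 4 lay above all WT libraries and KO 1 and KO 2 among them. The gap between Musk and Chrna1 was widest in KO 3, where Musk was 2.17 times Chrna1 in CPM, against 0.480 to 0.958 in the other 7 libraries. Dok7, at chr5:35056766-35087839 on the plus strand, encodes the adaptor that activates Musk from inside the cell. It had 7.35, 8.58, 17.3 and 12.6 CPM in KO tongue, against 6.41, 7.94, 7.61 and 7.87 CPM in WT tongue. The WT libraries were close together, KO 1 lay among them, and KO 2, KO 3 and KO 4 lay above them.

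Rapsn, at chr2:91035620-91045729 on the plus strand, encodes rapsyn, the scaffold that gathers the receptors. It had 7.51, 9.92, 11.2 and 13.7 CPM in KO tongue, against 9.62, 11.2, 9.27 and 11.6 CPM in WT tongue, and the KO group held both the lowest and the highest library. Colq, at chr14:31523082-31591343 on the minus strand, encodes the collagen tail that ties acetylcholinesterase to the basal lamina. It had 7.73, 11.1, 8.95 and 5.90 CPM in KO tongue, against 5.09, 6.45, 9.06 and 11.1 CPM in WT tongue, with full overlap. An annotated gene on the same strand, Gm49387, shares 199 exon bases with Colq and was not analysed here. Lrp4, at chr2:91457511-91513779 on the plus strand, encodes the agrin receptor. It had 67.5, 65.9, 70.4 and 70.3 CPM in KO tongue, against 64.4, 63.0, 57.4 and 58.8 CPM in WT tongue, so that every KO library lay above every WT library. This was 1 of 10 members whose groups did not overlap, beside 2.22% of all 15741 genes tested.

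No member passed the test of KO against WT in tongue, where 2 of 15741 genes did (0.0127%; edgeR quasi-likelihood F test, Benjamini-Hochberg adjusted p under 0.05, as in all such tests here). Those were the targeted Tmprss11a and Tmprss11b, both lower in KO tongue. DESeq2 called 0 members as well. Of the 10 log2 fold changes 7 were above 0, or 4 with libraries scaled to muscle reads. Their median was 0.11 and that of all genes was 0.01, and every adjusted p was at least 0.939. Dok7 had the highest value and was 1 of 10 members with an unadjusted p under 0.05, beside 496 of the 15741 genes (log2 fold change 0.59, SE 0.24, edgeR adjusted p = 0.939), higher in 3 of 4 KO libraries than in any WT library. Musk stood at 0.32 (SE 0.28), Chrng at 0.24 (SE 0.30), Chrnd at 0.21 (SE 0.23), Lrp4 at 0.15 (SE 0.09), Colq at 0.06 (SE 0.25) and Rapsn at 0.01 (SE 0.18). Below 0 were Chrna1 at -0.19 (SE 0.15), Chrne at -0.13 (SE 0.29) and Chrnb1 at -0.05 (SE 0.17). The 95% intervals were 0.07 to 1.12 for Dok7, -0.30 to 0.94 for Musk, -0.76 to 0.51 for Chrne and -0.04 to 0.35 for Lrp4. Each covers 1 gene with no adjustment for the number tested, and that of Dok7 belongs to the highest of the 10 values.

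The muscle list, like the members, had more values above 0 than below. Of its 12 genes 9 had a log2 fold change above 0, with a median of 0.23, and 0 were called (edgeR, with 0 at an unadjusted p under 0.05, and 0 by DESeq2). Scaling libraries to the reads of that list, in place of all reads, set the median of all genes at -0.16. Ttn weighed most in that list, with means of 20180 of 42951 CPM in KO tongue and 16921 of 37782 CPM in WT tongue. On that scale the log2 fold change was 0.39 for Dok7, 0.15 for Musk, 0.08 for Chrng, -0.03 for Lrp4 and -0.34 for Chrna1, and the share of muscle in the tissue was not tested beyond this. Within the A38x animals, 2 against 2, the log2 fold change was 0.93 for Dok7 (edgeR adjusted p = 0.211) and 0.46 for Musk (edgeR adjusted p = 0.38), and -0.68 for Chrne, -0.48 for Colq and -0.43 for Chrna1, none of them called. In the pairs of 1 KO and 1 WT library, the log2 ratio of Dok7 was 0.20 for A32x and 0.11 for A34x. Without KO 3 the value was 0.34 for Dok7 and 0.06 for Musk, each lower by more than 1.5 times, -0.01 for Chrng, -0.04 for Chrna1 and -0.03 for Chrne.

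**Figure D3:**
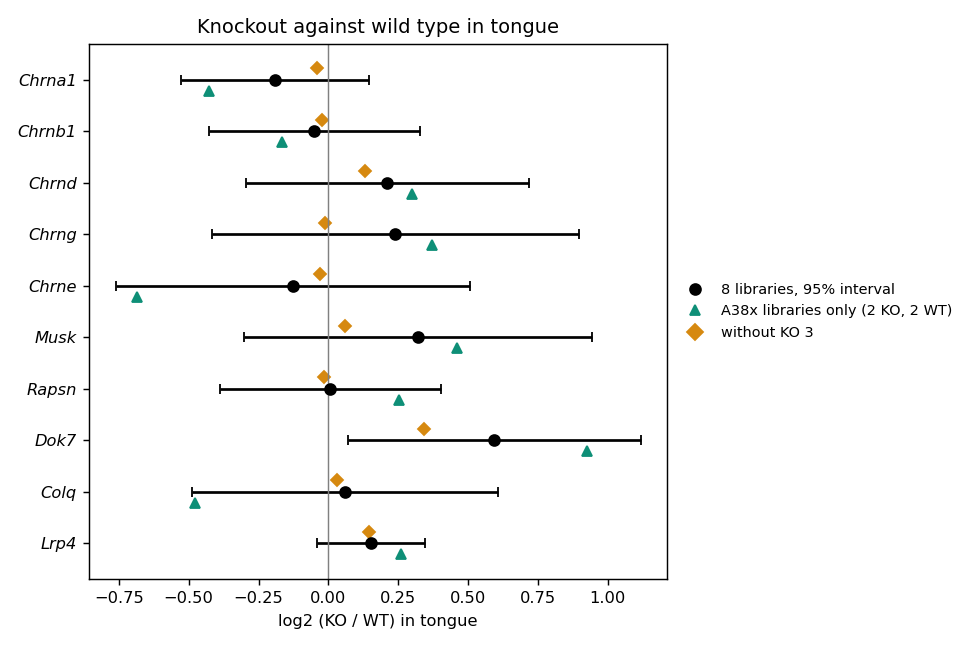
Difference between KO and WT tongue for each gene. The axis is the log2 fold change of KO over WT, circles with bars are the estimate from 8 libraries with its 95% interval, triangles use the A38x libraries and diamonds leave out KO 3. The interval of Dok7 runs from 0.07 to 1.12 and those of the other 9 genes cross 0, with no gene called after adjustment over all genes.

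Nearly all members were far higher in tongue than in epidermis, and Lrp4 was far lower. In KO mice 9 members were called higher and 1 lower, beside 31.1% and 32.7% of 16398 genes. In WT mice 8 members were called higher and 1 lower, beside 31.6% and 32% of 16577 genes, and Chrne was not called. The groups did not overlap for 10 of 10 members in KO mice and 9 of 10 in WT mice, beside 58.6% and 65.7% of genes. The 12 muscle genes gave ratios of tongue to epidermis in CPM, over pooled reads, of 35.2 to 467 in KO mice and 28.4 to 745 in WT mice. These set the scale for the members' ratios, which are given on the same pooled reads with exact 95% intervals for counting error.

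Chrna1 and Musk reached the upper end of that scale or passed it. The tongue level of Chrna1 was 1010 times that of epidermis in KO mice (345 to 4901) and 779 times in WT mice (266 to 3780), with 3 epidermis reads in each genotype. Musk gave 310 times (163 to 678) in KO mice and 801 times (221 to 6621) in WT mice, from 9 and 2 epidermis reads. Chrng gave 137 times (53.1 to 505) in KO mice and 330 times (58.9 to 13086) in WT mice, from 4 reads and 1 read. Chrnd gave 120 times (58.1 to 300) in KO mice, and in WT mice it had no epidermis read, which makes it at least 168-fold higher in tongue, counted against 3 reads over the group. These genes thus fell at or near the limit of detection in epidermis.

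The ratios of Chrnb1, Rapsn and Dok7 were lower. Chrnb1 gave 44.6 times (35.5 to 56.7) in KO mice and 49.7 times (37.5 to 67.4) in WT mice, and it was read in every epidermis library, at 0.692 to 1.86 CPM in KO and 0.741 to 2.04 CPM in WT. Rapsn gave 31.1 times (20.6 to 49.5) in KO mice and 44.2 times (24.5 to 89.0) in WT mice. Dok7 gave 32.4 times (21.4 to 51.5) in KO mice and 49.9 times (24.0 to 125) in WT mice. All 3 genes thus had lower ratios than Chrna1 and Musk in each genotype, with counting intervals that did not overlap. Those intervals leave out the spread between libraries, and the difference between genes was not tested. Colq lay between, at 54.9 times (29.6 to 115) in KO mice and 93.8 times (36.4 to 346) in WT mice. Relative to the muscle list in the same library, Chrnb1 had 0.991 to 1.40 CPM per 1000 CPM of muscle genes in KO tongue and 1.29 to 1.41 in WT tongue, against 1.34 to 8.88 in KO epidermis and 2.88 to 10.4 in WT epidermis. These ranges overlapped in KO mice and did not in WT mice. The scale leans on Ttn, whose means were 184 of 310 CPM in KO epidermis and 130 of 188 CPM in WT epidermis. On this scale Rapsn and Dok7 were also higher in epidermis, with no overlap in either genotype but few epidermis reads. In KO mice Rapsn had 0.208 to 0.303 in tongue and 0.447 to 2.59 in epidermis, and Dok7 had 0.180 to 0.358 and 0.447 to 4.87. The muscle list was highest among epidermis libraries in KO 2, at 720 CPM against 107 to 210 CPM in the other KO epidermis libraries, whereas Chrnb1 stood there at 0.966 CPM against 0.692 to 1.86 CPM.

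**Figure D4:**
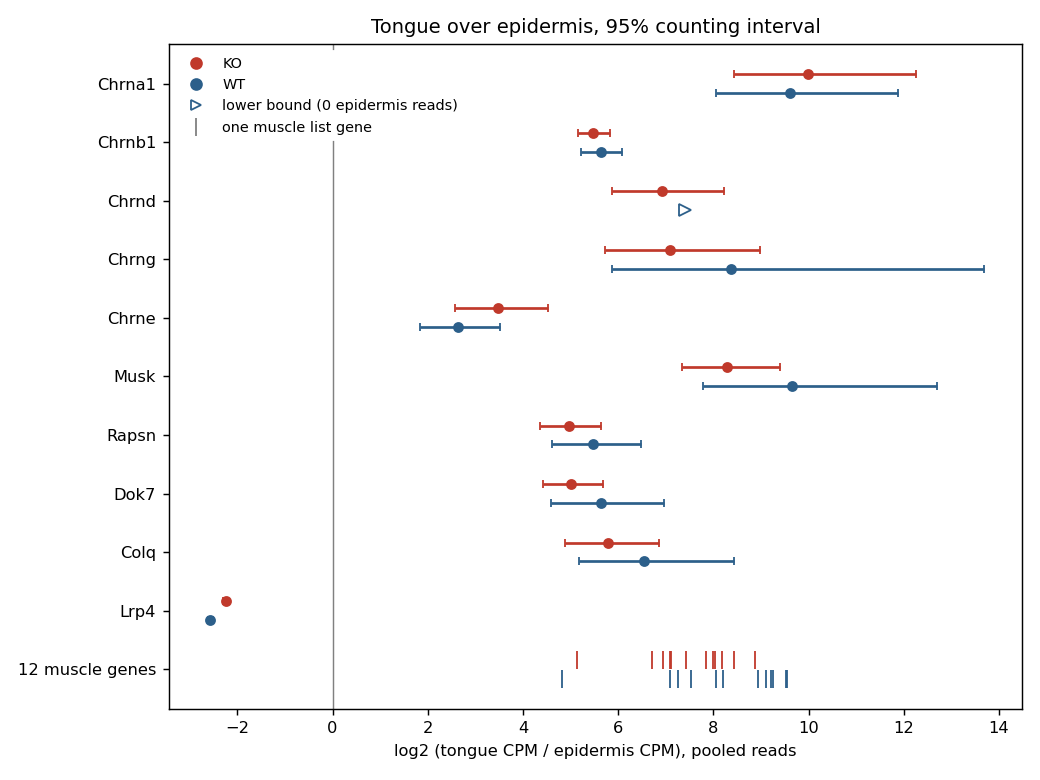
Tongue over epidermis for each gene in KO and WT mice. The axis is the log2 ratio of CPM from pooled reads, bars are exact 95% counting intervals, the open triangle is a lower bound where epidermis had no read, and the ticks in the bottom rows are the 12 muscle genes. Chrna1 and Musk lie within or above the range of the muscle genes, Chrnb1, Rapsn and Dok7 lie near its low end, Chrne lies below it and Lrp4 lies below 0 at -2.24 in KO mice and -2.57 in WT mice. Most epidermis reads of Chrne came from the A32x library of each genotype, and its place depends on them.

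Chrne had the smallest tongue excess of the 9 genes, at 11.1 times (5.95 to 23.0) in KO mice and 6.18 times (3.57 to 11.5) in WT mice. Its log2 fold change was 3.42 in KO mice (SE 0.71, edgeR adjusted p = 0.00126) and 2.26 in WT mice (SE 1.04, edgeR adjusted p = 0.0828). Its epidermis reads were 9, 2, 0 and 0 in KO 1 to 4, against 14, 0 and 1 in WT 1 to 3, so that the A32x libraries held most of them. Without epidermis WT 1 the log2 fold change in WT mice was 5.88 (edgeR adjusted p = 3.94e-06), and without KO 1 it was 5.16 in KO mice (edgeR adjusted p = 0.000105). Rapsn in WT mice stood at 5.17 to 5.66 over all fits, so the lowest rank of Chrne in WT mice rests on epidermis WT 1. With the animal as a block the WT value was 6.16 (edgeR adjusted p = 3.86e-17), and in A38x animals alone it was 6.24 (edgeR adjusted p = 4.74e-07). In WT mice 2 animals gave both tissues, both of them A38x. The blocked value thus rests on the same animals as the A38x value, and the 2 fits are not separate checks. The blocked fit also leaves few degrees of freedom, so its small p-value is a weak guide. An annotated gene on the opposite strand, 4930544D05Rik, spans the same stretch with no shared exon base. It had 36, 7, 4 and 7 reads in KO epidermis and 36, 2 and 9 in WT epidermis, and at most 3 in any tongue library. In this annotation, exon reads of Chrne and of this gene thus fall on different bases. The kits are not stated to mark strand, so unspliced reads of either gene over an exon of the other cannot be told apart from its own.

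Lrp4 was the member that ran against the others. It had 65.9 to 70.4 CPM in KO tongue and 57.4 to 64.4 CPM in WT tongue, against 363, 322, 266 and 339 CPM in KO epidermis and 443, 393 and 287 CPM in WT epidermis. Over pooled reads, tongue was 4.72-fold lower in KO mice (4.56 to 4.89) and 5.93-fold lower in WT mice (5.70 to 6.16). These intervals cover counting error only and leave out the spread between libraries, so they do not set the genotypes apart. The log2 fold change was -2.23 in KO mice (SE 0.15, edgeR adjusted p = 2.02e-07) and -2.58 in WT mice (SE 0.19, edgeR adjusted p = 3.02e-06). Outside muscle, Lrp4 is known as a regulator of Wnt signalling in the epithelium of skin appendages and teeth. Agrn, which encodes its ligand agrin, was picked out after its values were seen, and it was lower in tongue too. It averaged 88.2 ± 23.3 CPM in KO tongue and 69.5 ± 6.27 CPM in WT tongue (n = 4 each), and 273 ± 40.4 CPM in KO epidermis (n = 4) and 245 ± 28.5 CPM in WT epidermis (n = 3). Its log2 fold change between tongue and epidermis was -1.63 in KO mice (edgeR adjusted p = 2.22e-05) and -1.77 in WT mice (edgeR adjusted p = 6.93e-06). Tongue KO 3 had the highest Agrn of the tongue libraries, at 123 CPM. Counts per gene do not tell the transcripts of Agrn apart, nor show whether nerve or other cells made them.

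**Figure D5:**
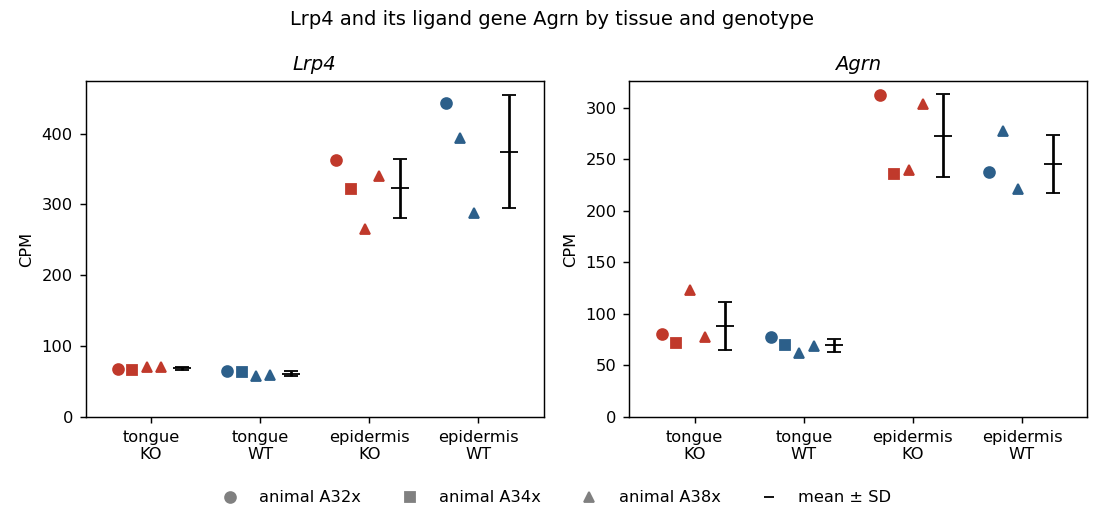
Lrp4 and its ligand gene Agrn in the 15 libraries. Points are CPM per library on a linear axis, shapes give the animal's number range and bars the mean ± SD. Both genes are lower in every tongue library than in every epidermis library, with Lrp4 at 57.4 to 70.4 CPM in tongue and 266 to 443 CPM in epidermis.

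Between genotypes in epidermis, Chrnb1 and Lrp4 passed the filter on low counts and the other 8 members did not. With no filter all 10 were tested, with edgeR adjusted p of 0.999 for each. Of the members that passed, 0 were called, beside 0% of 16073 genes (edgeR called 0 genes, with 187 at an unadjusted p under 0.05, and DESeq2 called 1). The log2 fold change was -0.06 for Chrnb1 (SE 0.50) and -0.22 for Lrp4 (SE 0.23), and without epidermis WT 1 it was 0.48 and -0.07. Musk had 2, 4, 2 and 1 reads in KO epidermis, against 0, 1 and 1 in WT epidermis, which is at the limit of 1 read. The KO effect in tongue minus that in epidermis was called for 0 of 10 members, beside 0% of 17935 genes (edgeR called 0 genes, with 299 at an unadjusted p under 0.05, and DESeq2 called 1). The member with an unadjusted p under 0.05 was Chrnd (edgeR adjusted p = 1), whose epidermis reads were 1, 2, 4 and 0 in KO and 0, 0 and 0 in WT, so that the difference rests on 7 reads.

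Most other lists of genes of the junction and its nerve held more genes called higher in tongue than lower. Of all genes, 31.1% were called higher and 32.7% lower in KO mice, and 31.6% and 32% in WT mice. The counts of these short lists were not tested against those shares. Between genotypes 0 of 64 tested in tongue and 0 of 54 in epidermis passed (edgeR, with 4 and 2 at an unadjusted p under 0.05, beside 496 of 15741 and 187 of 16073 of all genes, and 0 and 0 by DESeq2). Of 16 genes of agrin and the synaptic basal lamina, 10 were higher in tongue and 2 lower in KO mice, and 10 and 2 in WT mice. The highest log2 fold changes were those of Lama2 (6.42 in KO mice and 6.57 in WT mice), which encodes a laminin chain of the muscle basement membrane, and of Col13a1 (5.64 and 6.11), which encodes a transmembrane collagen of the synapse. Itga7 (5.64 and 5.65), for the laminin-binding integrin of muscle, and Lama4 (4.76 and 5.02), for a further laminin chain, followed. Ache, which encodes the acetylcholinesterase that Colq anchors and was picked out after its values were seen, stood at 2.22 in KO mice and 1.97 in WT mice.

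Of 25 genes of the postsynaptic scaffold and its signals, 15 were higher in tongue and 6 lower in KO mice, and 16 and 5 in WT mice. Dtna, for dystrobrevin, led at 7.15 and 6.60 in KO and WT mice, with Scn4a, the muscle sodium channel, at 5.66 and 5.02, and Erbb4, a neuregulin receptor, at 3.62 and 3.68. The related receptor genes Erbb2 and Erbb3, picked out after their values were seen, ran the other way. They were called lower in tongue in KO mice, at -2.32 and -2.07. Of 11 genes that respond to denervation or activity, 5 were higher in tongue and 2 lower in KO mice, and 6 and 4 in WT mice. Myog, for myogenin, a transcription factor of muscle differentiation, was highest (8.04 and 8.61), with the ubiquitin ligase gene Trim63 at 6.09 and 5.80 and the histone deacetylase gene Hdac9 at 5.44 and 5.42. The 2 lower in KO mice were Dach2 at -1.32 and Sik1 at -1.08, picked out after their values were seen. Of 5 glycosylation genes linked to congenital myasthenia in humans, 2 were higher in tongue in KO mice and 3 in WT mice, among them Gfpt1 (1.96 and 1.66) and Alg2 (0.45 and 0.43).

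Neuronal subunits and nerve genes were sparse. Of 11 neuronal nicotinic subunit genes, 6 were in the tables and the others were not analysed here, and 1 was tested between tissues. This was Chrnb2, with 1.29 ± 0.284 CPM in KO tongue and 0.841 ± 0.0836 in WT tongue (n = 4 each), and 2.02 ± 0.328 in KO epidermis (n = 4) and 2.27 ± 0.390 in WT epidermis (n = 3). It was lower in WT tongue than in WT epidermis (log2 fold change -1.36, edgeR adjusted p = 0.00299), and in KO mice the value was -0.64 (edgeR adjusted p = 0.0743). Chrna7 averaged 0.758 CPM in KO tongue and 0.759 CPM in WT tongue. Of 5 genes of cholinergic neurons in the tables, 4 were tested and all 4 were higher in tongue in both genotypes. They were Prph, for the axonal filament peripherin, at 8.51 and 6.35 in KO and WT mice, Slc5a7, for the choline transporter, at 4.82 and 4.20, Uchl1 at 4.60 and 3.43 and Isl1 at 2.16 and 2.60. Prph had no read in KO epidermis, so its first value depends on the fit and is no bound. Levels of this group in tongue summed to 15 to 17.9 CPM in KO and 13.4 to 19.9 CPM in WT.

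The genes whose pattern over all 15 libraries was most like that of Chrng were Aatk, Adam33, the entry named Mir453, Pbxip1 and Rilpl1. Likeness was the root mean square difference of centred log2(CPM + 0.5), which ran between 0.225 for Aatk and 0.256 for Rilpl1 among 15089 genes with a mean of at least 1 CPM in tongue. For Chrne they were Shisa3, Agtpbp1, Stk39, Fads2 and Tex16, at 0.253 to 0.276. Most of the spread that these values match is the gap between tongue and epidermis. For Chrng the added 0.5 narrows that gap, since its mean was 0.0674 CPM in KO epidermis and 0.0176 CPM in WT epidermis. A gene at a higher level, such as Pbxip1 at 128 CPM in tongue, can thus match with a smaller ratio between tissues.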

How the data were processed

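RNA was extracted from whole tongue and from epidermis freed of dermis, and SMARTer V4 complementary DNA and TruSeq v2 libraries were read from both ends, per the labels' protocols. The aligner was STAR 2.5.2a with build GRCm38.p3 (mm10), and DESeq2, edgeR and limma are named beside it, per the submitters' processing notes. How reads were counted, with which annotation and whether by strand, is not given in the sources used here. Whole-number counts per Ensembl gene, which were tested, were deposited by the authors with a second table of signal values, each count divided by a constant of its library, in which members were found by symbol. Levels are CPM on TMM-scaled library sizes over 15 libraries, computed here. They were 0.880 to 0.980 times the deposited signal. Of 23422 entries, 2 transgene entries (0.000972% to 0.00439% of reads) were left out. Coordinates and exon lengths are from GENCODE M21 on GRCm38, where 23337 IDs were found and 83 were not.

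Low genes were removed by filterByExpr (minimum count 10), and the others tested with edgeR 4.0.16 in R 4.3.3 (robust quasi-likelihood F test, TMM factors, no covariate, two-sided, Benjamini-Hochberg over all genes tested, threshold 0.05). The comparisons were KO against WT in each tissue, the difference of these effects, and tongue against epidermis in each genotype, with log2 values above 0 meaning higher in KO or in tongue. DESeq2 1.42.0, other scalings and filters, blocks and left-out libraries were alternatives. The steps were tested on simulated data. Whether the samples of a group are separate animals is not stated beyond their numbers, so p-values cover only the spread between samples, which may be technical. Deviations from the group means correlated at 0.652, 0.169 and 0.505 between epidermis libraries of the same replicate number. Epidermis replicate 2 is an A34x animal in KO and an A38x animal in WT. Between the tissues of the same animal the correlations were 0.0651, 0.218, -0.165 and 0.149 in KO mice and -0.0377 and 0.0648 in WT mice.

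The members and gene lists were chosen with earlier results of these data known. The text names every member, and of each other junction list those past the threshold between genotypes and up to 4 with the largest absolute tongue difference past the threshold in both genotypes, or the 2 of highest mean CPM where none passed. It also names the 5 genes most like Chrng and most like Chrne. Some genes that this rule names are not reported here. Other marker lists were summed by library. Fibroblast genes summed to 4210 to 4947 CPM in KO tongue and 3901 to 4669 in WT tongue, and Schwann cell genes to 65.4 to 71.0 and 60.2 to 74.6. Oral keratinocyte genes summed to 8721 to 11931 and 7413 to 12498, mast cell genes to 96.1 to 118 and 106 to 141, adipocyte genes to 83.7 to 254 and 195 to 281, salivary gland genes to 3.49 to 23.4 and 2.70 to 13.7, and immediate early genes to 63.7 to 99.4 and 60.7 to 99.4.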

Additional observations from a re-analysis of the deposited data

Results flagged for a closer look

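In 4 of the 56 sets of 4 libraries examined, 1 library lay far from the others of its group, where chance alone gives about 1 in 20. The level of a member was not among these 4 sets. In KO tongue, KO 3 had 78127 CPM of mt-Rnr1, with the next library at 23151 CPM, and 310919 CPM of mt-Rnr2, with the next at 375128 CPM. The summed muscle genes were lowest in tongue KO 1, at 30561 CPM with the next KO tongue library at 45361 CPM. They were highest in epidermis KO 2, at 720 CPM with the next KO epidermis library at 210 CPM. The part of these libraries in the members' values was not tested beyond leaving each out in turn.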

How the results depend on the processing

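No member passed between genotypes under any alternative run in either tissue, and the calls between tissues held in all of them except that Chrne in WT mice was also called without epidermis WT 1, without the A32x epidermis libraries (chosen after seeing the data), in A38x animals and with the animal as a block. Each of these alternatives for Chrne leaves out epidermis WT 1 or absorbs it in a block, so they are not separate checks. Of 160 alternative values for KO against WT in tongue, 142 kept their sign and 18 reversed. Leaving out 1 library at a time gave log2 fold changes of -0.18 to 0.076 for Chrnb1, -0.013 to 0.42 for Chrng, -0.36 to 0.051 for Chrne, -0.15 to 0.14 for Rapsn and -0.10 to 0.26 for Colq. Tongue libraries of the same replicate number had deviations from the group means that correlated at 0.578, 0.114, -0.137 and 0.236. With the replicate block Rapsn stood at -0.015, and at -0.0091 when the animals' number range was the block. Scaled to muscle reads, Rapsn stood at -0.19, Colq at -0.047 and Lrp4 at -0.029, and in A38x animals Colq stood at -0.48. The difference in the Chrng to Chrne ratio was -0.0031 to 0.756 when 1 tongue library was left out (exact permutation p of 0.114 to 1), 0.34 with 0.5 read added and 0.34 with a sign-flip replicate block (p = 0.5, exact permutation, added after seeing the data).

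In epidermis, where 23 of 30 alternative values kept their sign, Chrnb1 stood at 0.16 with the replicate block, 0.093 with the range as a block, 0.62 in A38x animals, 0.52 without A32x libraries and -0.39 to 0.48 without 1 library. For the difference between tissues, where 187 of 200 kept their sign, leaving out 1 library gave -0.47 to 1.09 for Chrna1, -0.56 to 0.22 for Chrnb1, -2.45 to 2.91 for Chrne and -2.12 to 0.10 for Colq. Chrne stood at -2.51 with the replicate block by animal and -0.70 without A32x epidermis libraries, and in A38x animals Chrng stood at 0.31 and Rapsn at 0.012. The blocks changed no other call. The cause of these reversals was not tested. Depth limits the epidermis values, since 3 reads come to 0.157 to 0.340 CPM there and 8 members did not pass the low-count filter.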
